A study of Mus musculus with 200 samples.

Results

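Long noncoding RNAs that stay mainly in the nucleus were followed in mouse brain after a single closed-head injury (CHI) or sham surgery. The set was 7 genes, Malat1, Neat1, Meg3, Miat, Rian, Mirg and Snhg11, taken by gene name from a table of 56941 genes measured in 200 mice. CHI was an impact on the intact skull, and sham mice had the anaesthesia and scalp incision without the impact. Brains were taken at 9, 24 or 72 h from 67 sham mice and a larger number of CHI mice (102 female and 98 male in all, aged 3.3 to 7.67 months) of 4 strains. In C57BL/6J mice the groups held 15 CHI and 6 sham mice at 9 h, and 14 and 6 at each later time. The mice labelled IL-1R1 gKO numbered 13 CHI and 6 sham at 9 h, then 12 and 6 at each later time. For IL-1R1 eRestore the numbers were 12 and 6 at 9 h, 9 and 5 at 24 h, and 12 and 6 at 72 h. For IL-1R1 nRestore they were 6 and 4 at 9 h, 8 and 5 at 24 h, and 6 and 5 at 72 h, the last all male. The altered part of Il1r1, the promoter or Cre behind each label and the background strain of the last 3 lines were not given in the sources used here. The study's methods describe C57BL/6J mice, with surgery in the morning, so between 9 h and the later times, time after surgery and time of day cannot be told apart.

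Nuclear-retained long noncoding RNAs are transcribed and processed much like messenger RNAs but act as RNA, often close to where they are made. Malat1 collects in nuclear speckles, the stores of splicing factors, and Neat1 is the scaffold on which paraspeckles assemble. Meg3, Rian and Mirg lie one after another on the maternally expressed strand of the imprinted Dlk1-Dio3 region, where Rian and Mirg carry clusters of small nucleolar RNAs and microRNAs in their introns. Miat, also called Gomafu, is a neuronal nuclear RNA with repeated copies of a branch-point-like motif, and Snhg11 is a brain-enriched host of small nucleolar RNAs.

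All 7 were matched by identifier to the GENCODE annotation of GRCm39, which classes each as a lncRNA. Malat1 lies at chr19:5845717-5853602 and Neat1 beside it at chr19:5874736-5897132, both on the minus strand. Meg3 (chr12:109506877-109538165), Rian (chr12:109570242-109628150) and Mirg (chr12:109696198-109715898) lie on the plus strand of chromosome 12. Miat is at chr5:112361094-112377261 on the minus strand and Snhg11 at chr2:158217558-158228071 on the plus strand. The annotation gives between 7 transcripts (Snhg11) and 85 (Meg3) per gene. Genes on the other strand overlap 5 of the 7, among them Frmd8os at Neat1 and Rtl1 at Rian. Whether the counting used strand was not given in the sources used here, so reads of such pairs cannot be told apart.

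The 3′ ends of Malat1 and of the long form of Neat1 are shown because they end in no ordinary poly(A) tail. Each is known to fold into a triple helix of U-rich stretches and an A-rich tract, and the libraries here were made from poly(A)-selected RNA. The windows are read from GRCm39 on the minus strand, at chr19:5846010-5846119 for Malat1 and chr19:5874736-5874845 for Neat1. The Malat1 window stops at the A-rich tract, base 7593 of a longest annotated transcript of 7886 bases, so it is not the annotated end. The Neat1 window reaches the annotated end, base 22397. Capitals mark U-rich stretches (written with T) found by a letter pattern, and the A-rich tract at the end. The marked stretches were not matched to the strands of the helix. The middle one of Malat1, TTTTGTTTT, has no counterpart in the Neat1 window.
Malat1 3′ end: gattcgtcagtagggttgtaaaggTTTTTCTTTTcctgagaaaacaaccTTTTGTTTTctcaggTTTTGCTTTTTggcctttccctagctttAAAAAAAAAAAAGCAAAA
Neat1 3′ end: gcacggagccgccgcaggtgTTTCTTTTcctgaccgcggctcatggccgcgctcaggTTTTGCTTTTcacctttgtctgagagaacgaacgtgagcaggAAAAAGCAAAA
Both windows hold TTTTGCTTTT ahead of the A-rich tract, and both end in AAAAGCAAAA. What part the selection for poly(A) had in the levels below was not tested.

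The repeat of Miat is shown from its longest annotated transcript, at chr5:112365180-112365321 on the minus strand of GRCm39, with the motif TACTAAC in capitals.
Miat repeat window: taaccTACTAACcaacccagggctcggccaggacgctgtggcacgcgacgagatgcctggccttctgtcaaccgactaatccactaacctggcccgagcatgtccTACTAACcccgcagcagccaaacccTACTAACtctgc
This window holds 3 matches, and the whole transcript of 9163 bases holds 6, searched on the transcript's own strand. Of 481956 annotated transcripts of any length, 4.441% held at least 1 match, and 11, this one among them, held as many or more. Longer transcripts have more room for a match, and length was not taken into account. Neat1 held 1 match in its 22397 bases, and the longest transcripts of the other 5 held none.

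The promoter of Meg3 opens the maternally expressed run of genes and is shown with a cyclic AMP response element, TGACGTCA, and a TATA box, TATAAA, in capitals; the TATA box was matched on both strands, and its overlapping matches were joined. The sequence is RefSeq's for GRCm38.p6, plus strand, from 250 bases before to 50 bases after the start.
Meg3 promoter: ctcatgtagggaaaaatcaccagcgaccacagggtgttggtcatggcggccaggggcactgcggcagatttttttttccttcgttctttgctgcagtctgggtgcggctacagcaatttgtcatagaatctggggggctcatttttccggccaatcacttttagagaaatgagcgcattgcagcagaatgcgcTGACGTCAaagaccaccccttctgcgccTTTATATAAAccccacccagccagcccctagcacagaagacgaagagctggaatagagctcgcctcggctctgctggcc
Of 32851 promoters of this length, 1.79% held TGACGTCA and 13.6% held TATAAA, and none of the other promoters found for these genes held TGACGTCA. The match is a description of the letters.

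The libraries held 14858000 to 57355700 assigned counts (median 20258900), with 4.65 to 9.76% of counts from mitochondrial genes. The 7 RNAs together took 0.0682 to 1.24% of the counts of a library (median 0.322%), and the lowest count of any of them was 13, for Mirg. Il1r1 was not lower in the mice labelled IL-1R1 gKO (median 3.94 TPM) than in C57BL/6J mice (2.00 TPM), so the counts of the whole gene did not check that label. Neuronal markers summed to 4096 to 8421 TPM in each library and liver markers to at most 7.42 TPM.

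Per unit of length, Rian, the host of box C/D small nucleolar RNAs, was the most abundant of the 7, at a median of 487 TPM (transcripts in a fixed total, corrected for length) over the 200 mice. Malat1 followed at 408 TPM, Meg3 at 315, Snhg11 at 196.6, Neat1 at 42.02, Miat at 39.3 and Mirg at 10.1 TPM. The top pair changed places often: Malat1 was above Rian in 68 of 200 mice, and Meg3 above Malat1 in 36. Neat1 and Miat had no fixed order, with Miat higher in 94 of 200 mice. Miat had the higher median at 9 h (25.5 TPM against 13.1 for Neat1) and Neat1 at 24 h (50.2 against 44.7) and 72 h (51.8 against 43.3), and Neat1 was above Miat in 1 of the 31 mice of experiment eIL-1-76, described next. Meg3 was above Snhg11, Snhg11 above Neat1, and Miat above Mirg in all 200 mice. These RNAs also varied widely. The highest mouse had 46.9 times the TPM of the lowest for Malat1, 31.3 times for Neat1, 28.5 for Mirg, 23.7 for Meg3, 17.9 for Snhg11 and 14.3 for Miat. Rian stood apart with 2.91 times. On the scale of log2 CPM (counts scaled to a fixed library total), the SD over mice was 0.36 for Rian and 0.77 to 1.15 for the other 6. The median SD was 0.31 over 20111 genes, and 0.20 over the 11438 genes at least as abundant as Mirg.

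Levels differed between experiments and between times. The experiment label is a code that groups mice, and the labels do not spell out its meaning. At 9 h the mice came from 3 experiments, TM-2-33 (18 mice), eIL-1-76 (31) and eIL-1-80 (19), and eIL-1-76 was low for every one of the 7 RNAs. Meg3, an imprinted RNA of neurons, had a lowest, median and highest level of 44.6, 75.3 and 393 TPM in eIL-1-76, against 90.2, 238 and 378 TPM in TM-2-33 and 151.5, 263 and 376 TPM in eIL-1-80. The medians thus lay over 3-fold apart, while the ranges overlapped. Miat was at 6.88, 10.8 and 39.5 TPM in eIL-1-76, against 16.0, 36.7 and 62.7 TPM in TM-2-33 and 23.7, 42.03 and 62.6 TPM in eIL-1-80. Of the 31 mice of eIL-1-76, 27 had less Miat than any of the other 37 mice at 9 h. That count was 21 for Mirg and Snhg11, 20 for Malat1 and Meg3, 15 for Neat1 and 4 for Rian.

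Malat1 had 49.5, 138.3 and 558 TPM in eIL-1-76, 150, 313 and 596 TPM in TM-2-33, and 183.2, 356 and 615 TPM in eIL-1-80. Neat1 had 3.25, 6.34 and 33.1 TPM in eIL-1-76, 6.27, 17.9 and 35.8 TPM in TM-2-33, and 8.17, 17.3 and 35.96 TPM in eIL-1-80. The paraspeckle scaffold was therefore low in the same experiment as the speckle RNA, again with overlapping ranges. Snhg11 medians were 54.9, 174.3 and 171.1 TPM in that order, Mirg medians 3.72, 9.86 and 8.29 TPM, and Rian medians 342, 465 and 413 TPM. The median of the other 37 mice over that of eIL-1-76 ran from 1.22 for Rian to 3.76 for Miat. The same mouse, IL-1R1 eRestore sham mouse 5, had the highest level of each of the 7 RNAs within eIL-1-76. Experiment eIL-1-76 also had the highest median sum of neuronal markers, 7237 TPM against 4841 to 6673 TPM in the other sets of mice, and the deepest libraries (median 27782100 counts); their part in the difference was not tested.

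**Figure D1:**
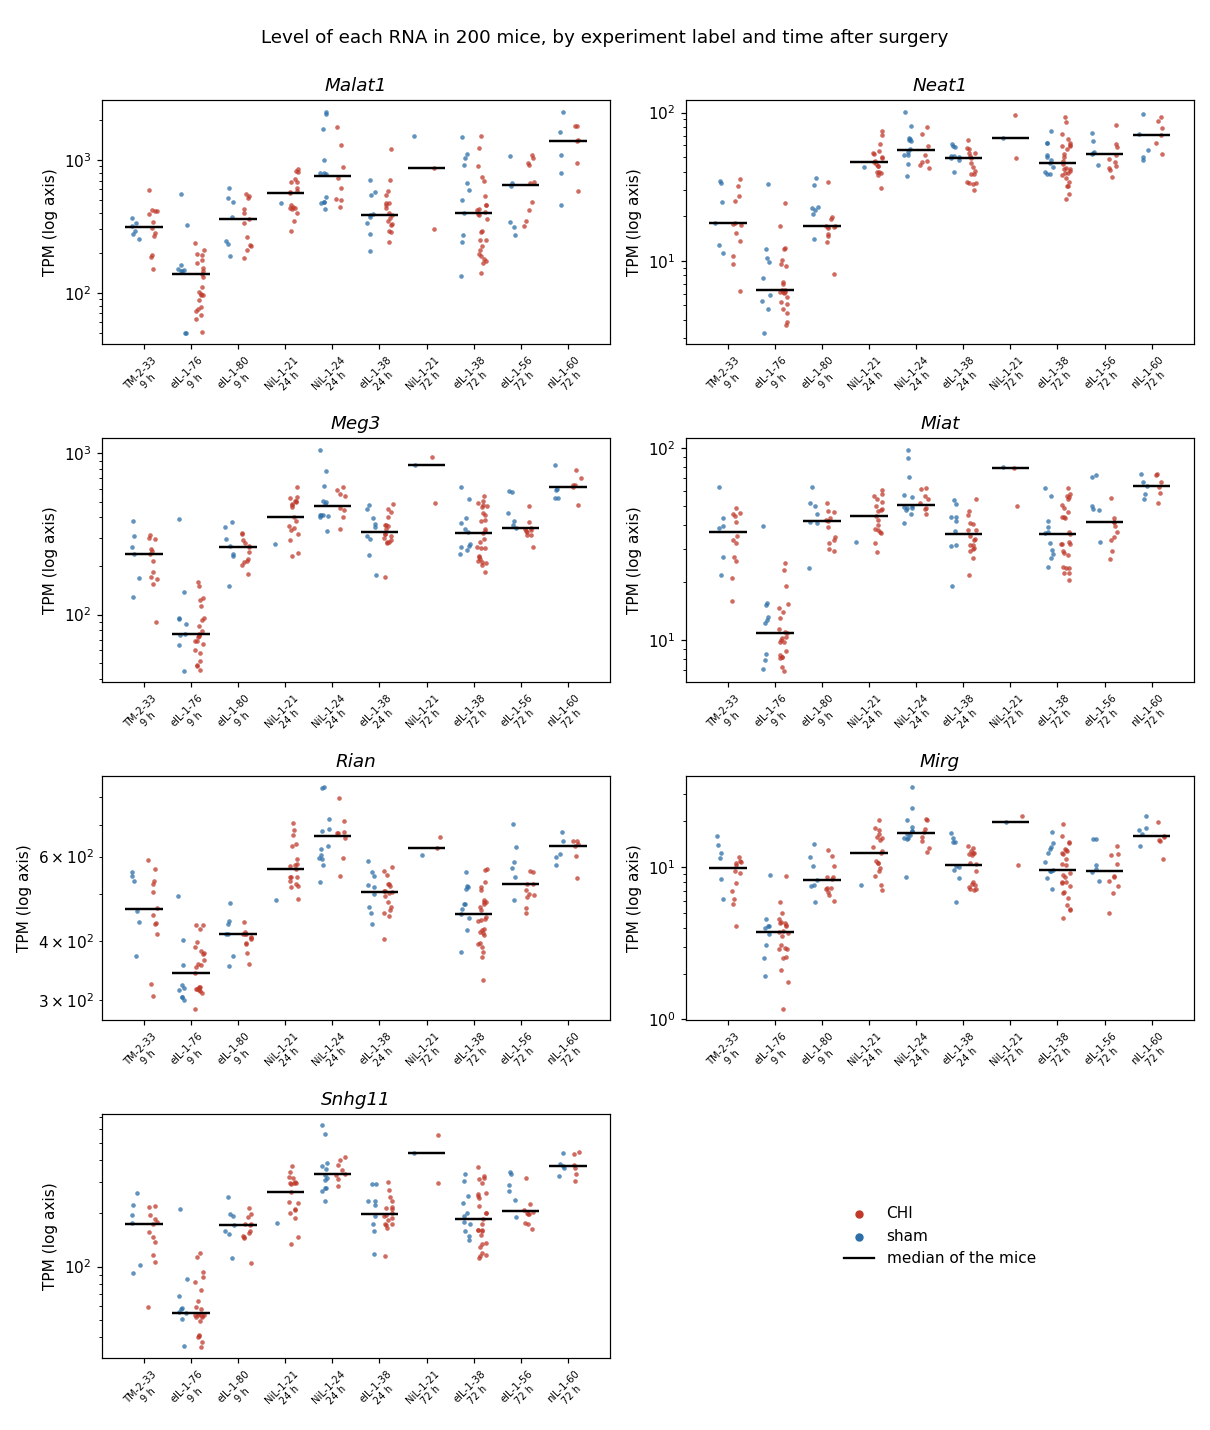
Level of each RNA in TPM (log axis) by experiment label and time after surgery, 1 point per mouse (CHI red, sham blue), with the median as a line. Experiment eIL-1-76 at 9 h has the lowest median of all 10 sets in every panel, and Rian spans the narrowest range, 288 to 837 TPM.

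Differences between experiments at a time were tested in edgeR's quasi-likelihood fit over all genes, with strain, surgery and sex as further terms and age where it could be estimated, and with Benjamini-Hochberg adjustment. At 9 h, 7 of the 7 RNAs passed, where 48.7% of all genes tested did, with adjusted p from 1.1e-15 for Miat to 3.2e-07 for Neat1. Without eIL-1-76, the test between the 2 other experiments called 1 of the 7, Miat (adjusted p = 0.0166), with Meg3 at 0.0505, where 7.66% of genes were called. At 24 h, 6 of 7 passed, where 28.2% of genes did. Neat1 did not (adjusted p = 0.20), and the smallest adjusted p was 0.00014 for Rian. At 72 h, 6 of 7 passed again, where 15.4% of genes did. Neat1 was once more the member that missed (adjusted p = 0.26), and the smallest adjusted p was 0.00021 for Meg3.

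At 24 h, experiment NiL-1-24 (20 mice) was high, NiL-1-21 (19) intermediate and eIL-1-38 (26) low. Malat1 had a lowest, median and highest level of 427, 759 and 2303 TPM in NiL-1-24, 292, 569 and 850 TPM in NiL-1-21, and 205, 388 and 1204 TPM in eIL-1-38. Snhg11 followed the same order with medians of 332, 263 and 198.4 TPM, and so did Rian with 663, 566 and 507 TPM. Neat1 medians were 55.8, 46.7 and 49.5 TPM, a narrower spread. At 72 h, nIL-1-60 (11 mice) had medians of 1399 TPM for Malat1, 614 for Meg3 and 630 for Rian, while eIL-1-38 (37 mice) had 398, 319 and 455 TPM. Experiment eIL-1-56 (16 mice) lay between them for Malat1 (651 TPM), Meg3 (345) and Rian (526). The 3 mice of NiL-1-21 at 72 h had 304, 872 and 1529 TPM of Malat1, far apart for mice of 1 set.

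Levels at 24 and 72 h were above those at 9 h for all 7 RNAs, and Neat1 showed the widest step. The Neat1 median was 13.1 TPM at 9 h (68 mice), 50.2 at 24 h (65) and 51.8 at 72 h (67). Of the 68 mice at 9 h, 59 had less Neat1 than the lowest of the 132 later mice, 26.1 TPM. This holds in part without eIL-1-76: 29 of the other 37 mice at 9 h were below that level, and the later median was 2.83 times theirs. For Miat the later median was 1.08 times that of these 37 mice, for Rian 1.26, Snhg11 1.38, Mirg 1.43, Malat1 1.48 and Meg3 1.57 times. No experiment held mice of 9 h and of a later time, so for the 9 h mice time, experiment and time of day cannot be told apart, and no test was made. Experiment eIL-1-38 held both later times. There, 0 of the 7 RNAs differed between 72 and 24 h in edgeR, where 3.67% of all genes did. At an unadjusted p under 0.05 there was 1, Rian, lower at 72 h by 0.12 on the log2 scale (SE 0.05, adjusted p = 0.18).

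Split into shares, experiment and time accounted for 63.4% of the variance of log2 CPM for Malat1, 81.7% for Neat1, 76.3% for Meg3, 72.8% for Miat, 71.4% for Rian and for Mirg, and 74.8% for Snhg11. The median over all genes was 23.2%. Surgery within strain and time accounted for 1.19% (Meg3) to 2.32% (Malat1), against a median of 5.22% over all genes, and strain within time for 0.876 to 1.75%, against 4.89%. Sex took at most 0.259%, for Rian. Malat1 had the largest share left over of these RNAs, 33.1%, against a median of 62.0% over all genes. Experiment and time were entered first, so the later terms had less variance to take up in these RNAs than in the median gene. Their smaller shares for surgery and strain therefore do not show smaller effects.

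**Figure D2:**
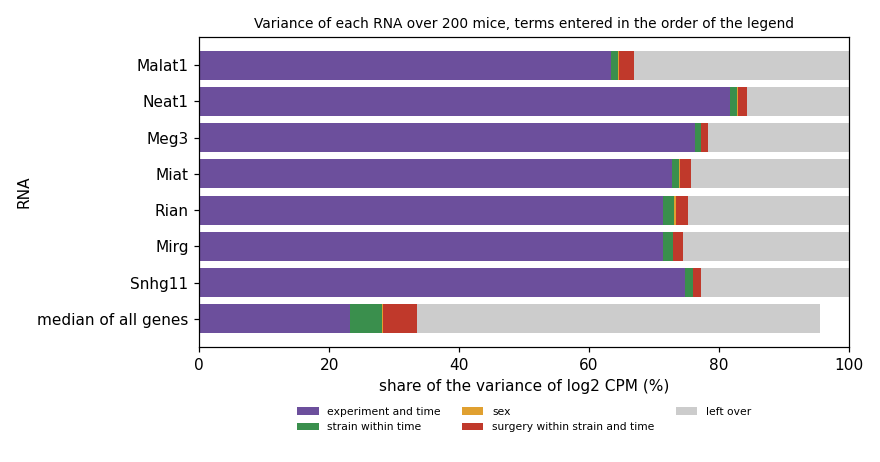
Share of the variance of log2 CPM over 200 mice (horizontal axis, %) for each RNA, entered in the order experiment and time, strain, sex, surgery. The purple bars of the 7 RNAs reach 63.4 to 81.7%; the bottom bar stacks medians over all genes, which need not sum to 100.

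The RNAs rose and fell together from mouse to mouse within groups. After the means of the 24 strain, time and surgery groups were removed, all 21 pairs were positively correlated over 200 mice, with Pearson's r of 0.51 (Malat1 with Neat1) to 0.97 (Meg3 with Snhg11). Each pair had a permutation p of 1e-05, the smallest that 100000 permutations within groups can give, for r and for Spearman's rho, and the adjusted p over the 21 pairs was also 1e-05. Most groups mixed mice of different experiments, so these p-values cover differences between experiments as well as between mice. Spearman's rho ran over the same pairs from 0.50 to 0.97. Meg3, Miat and Snhg11 formed the tightest trio: r was 0.96 for Meg3 with Miat (rho 0.96) and 0.97 for Miat with Snhg11 (rho 0.97). Without the 2 mice farthest from the median, r was 0.95 for Meg3 with Miat, 0.96 for Miat with Snhg11 and 0.97 for Meg3 with Snhg11.

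Neighbours in the genome were not the pairs with the highest r. Meg3 with Rian, its neighbour in the Dlk1-Dio3 region, had r of 0.79, Meg3 with Mirg 0.88 and Rian with Mirg 0.76, all below Meg3 with Snhg11 of chromosome 2. Malat1 and Neat1, which adjoin on chromosome 19, had the lowest r of all pairs. With the experiment means removed as well, r ran from 0.29 for Malat1 with Neat1 to 0.94 for Meg3 with Snhg11. Within each of 9 sets of mice of 1 experiment and time, r of Meg3 with Snhg11 lay between 0.91 and 0.98. The pairs with Malat1 did not hold within every set: r of Malat1 with Neat1 ran from -0.19 to 0.76, and with Miat from -0.12 to 0.92.

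**Figure D3:**
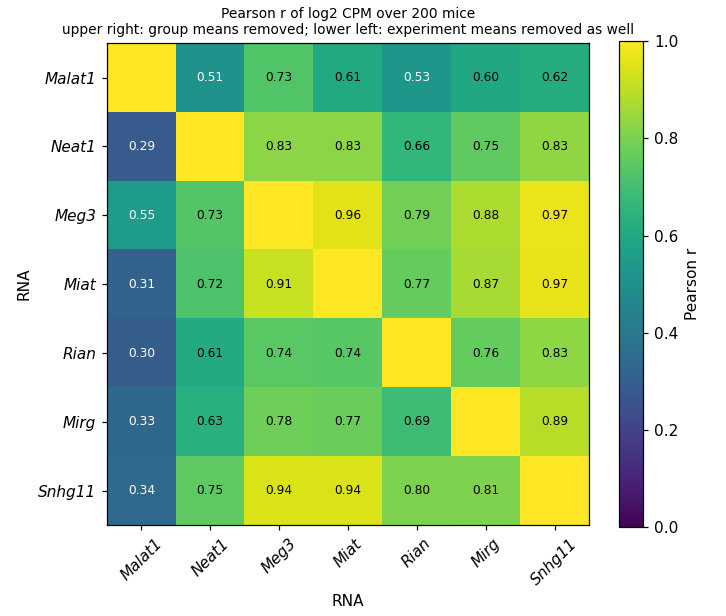
Pearson's r of log2 CPM between the RNAs over 200 mice; above the diagonal with the means of the 24 groups removed, below it with experiment means removed as well. Meg3, Miat and Snhg11 form the brightest block (0.96 to 0.97 above the diagonal), and the row and column of Malat1 are the darkest.

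Among 20110 other genes, those nearest to each RNA were found by r of the same residuals, as a description, since the values share libraries and depth. Malat1 was nearest to 9330162G02Rik (r = 0.88), Kcnq1ot1 (0.88), the imprinted antisense RNA, and Nktr (0.87). Neat1 was nearest to Firre, a nuclear lncRNA of the X chromosome (0.87), Arglu1 (0.87) and Pnisr (0.86). Meg3 had Snhg11, Miat and Gm3764 (0.95) as its nearest, and Miat had Snhg11, Meg3 and Mir124a-1hg (0.95), the host of a neuronal microRNA. Snhg11 was nearest to Meg3 (0.97), Leng8 (0.97) and Miat, Mirg to Fam193b (0.90), Snhg11 (0.89) and Leng8 (0.89), and Rian to Wsb1 (0.90), Zranb2 (0.84) and Trank1 (0.84). Over all genes, r above 0.8 was reached by 0.751% of genes with Snhg11, 0.736% with Meg3 and 0.617% with Miat, and by 0.0796% with Malat1. The same residuals had r of 0.20 (Malat1) to 0.61 (Rian) with the share of mitochondrial counts and of -0.28 to -0.13 with log2 total count. With the summed neuronal markers r was -0.35 (Malat1) to -0.67 (Rian), with microglial markers -0.50 to -0.37 and with astrocyte markers 0.18 to 0.41. In bulk tissue, fewer cells of a type and less RNA per cell cannot be told apart, and the part of these measures was not tested.

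The effective length that the authors' quantification gave each gene in each mouse depends in part on which transcripts the reads were assigned to. Other differences between libraries can also enter it, and their part in the values below was not tested. Relative to the median gene, on a log2 scale, Malat1 had a median of 0.039 in eIL-1-76 and 0.217 to 0.282 in the other experiments, a shorter effective length there. Neat1 was at 0.162 in eIL-1-76 and 0.226 to 0.280 elsewhere. Meg3 went the other way, at 1.46 in eIL-1-76 and 1.28 to 1.41 elsewhere. The SD over mice was 0.133 for Malat1, 0.228 for Mirg and 0.0427 for Snhg11, against a median of 0.0596 over 9758 genes. Between CHI and sham, 0 of 84 comparisons of relative length passed in the exact permutation test (lowest adjusted p = 0.671), with a lowest unadjusted p of 0.00952. That p, for Miat in IL-1R1 nRestore mice at 9 h, is the smallest that this test can give with 6 CHI and 4 sham mice. In the smallest groups a change of a single RNA could therefore not pass the adjustment, and its absence there shows nothing.

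CHI against sham was compared in each strain at each time, the question being whether the injury moved these RNAs. By edgeR, 0 of the 7 RNAs were called in each of the 12 comparisons, and CHI and sham ranges overlapped in 84 of 84 pairs of an RNA and a comparison. Overlap was not counted over all genes, so that count shows nothing particular to these RNAs. Of the 84 fitted log2 fold changes, 62 were below 0 (69 without sex and age as covariates), with a range of -1.14 to 0.59, and 3 had an unadjusted p under 0.05. The 84 values are not independent, since the RNAs covary. DESeq2 called 1 of the 84, given below.

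At 9 h in C57BL/6J mice, where 14.1% of all genes were called, Malat1 had a lowest, median and highest level of 73.2, 183.2 and 556 TPM after CHI and 49.5, 175.2 and 615 TPM after sham (log2 fold change -0.20, SE 0.33, adjusted p = 0.75). The sham mice spanned the whole range of the injured ones. Neat1 was at 3.88, 8.17 and 17.3 TPM after CHI and 3.25, 9.84 and 22.1 TPM after sham (log2 fold change 0.09, SE 0.31). The 7 log2 fold changes in this strain lay between -0.20 and 0.11. In IL-1R1 gKO mice, where 0.199% of genes were called, they lay between -0.18 and 0.03, and Neat1 had the same median, 16.8 TPM, in both groups. In IL-1R1 nRestore mice, where 0.608% were called, the sign rested on the covariates: all 7 were above 0 with sex and age in the fit, from 0.01 to 0.37, and 6 of 7 were below 0 without them, from -0.33 to 0.04. The median TPM was also lower after CHI for these 6, such as Neat1 with 16.4 TPM in 6 CHI mice against 25.7 TPM in 4 sham mice.

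In IL-1R1 eRestore mice at 9 h, 7.34% of genes were called and all 7 RNAs were lower after CHI, by log2 fold changes of -1.14 to -0.25, though none passed in edgeR. Neat1 had the largest: 3.69, 9.37 and 34.1 TPM (lowest, median and highest of 12 CHI mice) against 9.78, 27.5 and 35.96 TPM (6 sham mice). The log2 fold change was -1.14 (SE 0.39, unadjusted p = 0.0119, adjusted p = 0.0907). DESeq2 called it, with an adjusted p of 0.0404, or 0.0446 with gene-length offsets. Of the 16652 genes tested, DESeq2 called 1991, or 1539 with the offsets, so a call of 1 of 7 RNAs is not particular to this set. Both experiments entered these groups unequally: 8 of the 12 CHI mice but 3 of the 6 sham mice came from eIL-1-76, where levels were low. In eIL-1-80 the 3 sham mice had 35.96, 32.3 and 22.7 TPM and the 4 CHI mice 14.8, 15.1, 34.1 and 19.8 TPM. Of the 4 injured mice, 3 were below every sham mouse and 1 was as high as the sham mice. The edgeR fit on these 7 mice, with sex and age as covariates, gave -0.97 (SE 0.12, adjusted p = 0.0020). It called 370 of 16413 genes and left few mice to measure the spread. Age at 9 h in this strain reached 5.17 months after CHI and 4.73 after sham, and how far the value rests on the age term was not tested. In eIL-1-76 the 3 sham mice had 10.4, 33.1 and 9.78 TPM, and the 8 CHI mice 3.69 to 24.7 TPM. With experiment in place of age the log2 fold change was -0.82 (SE 0.40, adjusted p = 0.24). Rian, the other member with an unadjusted p under 0.05 here, was lower by 0.25 (SE 0.12, p = 0.0473, adjusted p = 0.19 in edgeR's fit). Without eIL-1-76, Meg3 and Malat1 had log2 fold changes of -0.07 (SE 0.31) and 0.01 (SE 0.35), against -0.76 (SE 0.41) and -0.73 (SE 0.51) with it.

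**Figure D4:**
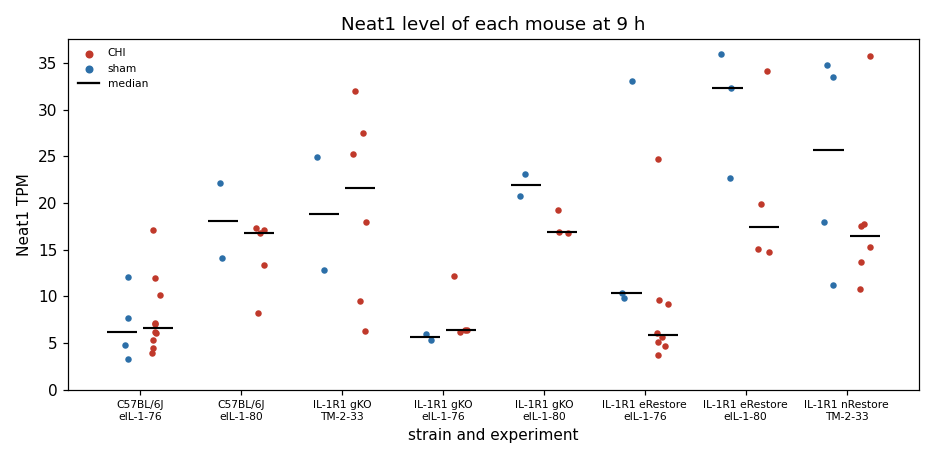
Neat1 level in TPM (vertical axis) of each mouse at 9 h, by strain and experiment, CHI red and sham blue, with medians as lines. In IL-1R1 eRestore mice of eIL-1-80 the 3 sham mice sit at 22.7 to 35.96 TPM and 3 of the 4 CHI mice at 14.8 to 19.8 TPM.

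At 24 h few genes were called in any strain: 0.404% in C57BL/6J, 0.0059% in IL-1R1 gKO, and 0% in IL-1R1 eRestore and in IL-1R1 nRestore. Malat1 went in both directions. In C57BL/6J mice its lowest, median and highest levels were 324, 513 and 1768 TPM after CHI and 279, 433 and 529 TPM after sham (log2 fold change 0.59, SE 0.36, adjusted p = 0.68). In IL-1R1 gKO mice they were 242, 467 and 893 TPM after CHI and 336, 664 and 2221 TPM after sham (log2 fold change -0.96, SE 0.50, adjusted p = 0.61). A few high mice set the upper ends, and the highest of both strains were of experiment NiL-1-24. In IL-1R1 nRestore mice the 5 sham mice had 2303, 485, 805, 478 and 1002 TPM of Malat1 and the 8 CHI mice 398, 501 and 825 TPM at the lowest, median and highest (log2 fold change -0.98, SE 0.46, adjusted p = 0.96). The CHI mice were 7 females and 1 male and the sham mice 2 females and 3 males, and the part of the sex and age terms was not tested. With those terms in the fit, the log2 fold change was 0.07 (SE 0.36) without sham mouse 1. That mouse also had the highest level of its group for the 6 other RNAs.

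Neat1 in IL-1R1 nRestore mice at 24 h was at 81.3, 52.1, 65.6, 57.2 and 67.3 TPM in the sham mice and at 42.5, 48.8 and 61.7 TPM at the lowest, median and highest of the CHI mice. The log2 fold change was -0.42 (SE 0.15, unadjusted p = 0.0159, adjusted p = 0.96 in edgeR). All 5 sham mice came from NiL-1-24 and 4 of the 8 CHI mice from NiL-1-21; the other 4 CHI mice, from NiL-1-24, had 42.5, 44.6, 47.2 and 59.8 TPM. In IL-1R1 eRestore mice the 7 log2 fold changes were -0.31 to 0.28. In IL-1R1 gKO mice all were below 0, from -0.96 to -0.13.

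At 72 h the share of genes called was 0% in C57BL/6J and IL-1R1 gKO mice, 0.00605% in IL-1R1 eRestore and 0.0121% in IL-1R1 nRestore mice. All 7 RNAs were below 0 in C57BL/6J mice, from -0.81 for Malat1 (SE 0.50, adjusted p = 0.91) to -0.17 for Neat1 (SE 0.24). Malat1 there had 141.1, 402 and 1091 TPM after CHI and 133.3, 878 and 1529 TPM after sham, so the sham mice held both the lowest and the highest level. In the other 3 strains the log2 fold changes were -0.21 to 0.05 (IL-1R1 gKO), -0.41 to 0.05 (IL-1R1 eRestore) and -0.31 to 0.08 (IL-1R1 nRestore), with 0 called by edgeR and by DESeq2 and 0 at an unadjusted p under 0.05. The standard errors of the members in the 12 comparisons reached 0.55 (Malat1 in IL-1R1 gKO mice at 72 h), against medians over all genes of 0.0792 to 0.133.

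**Figure D5:**
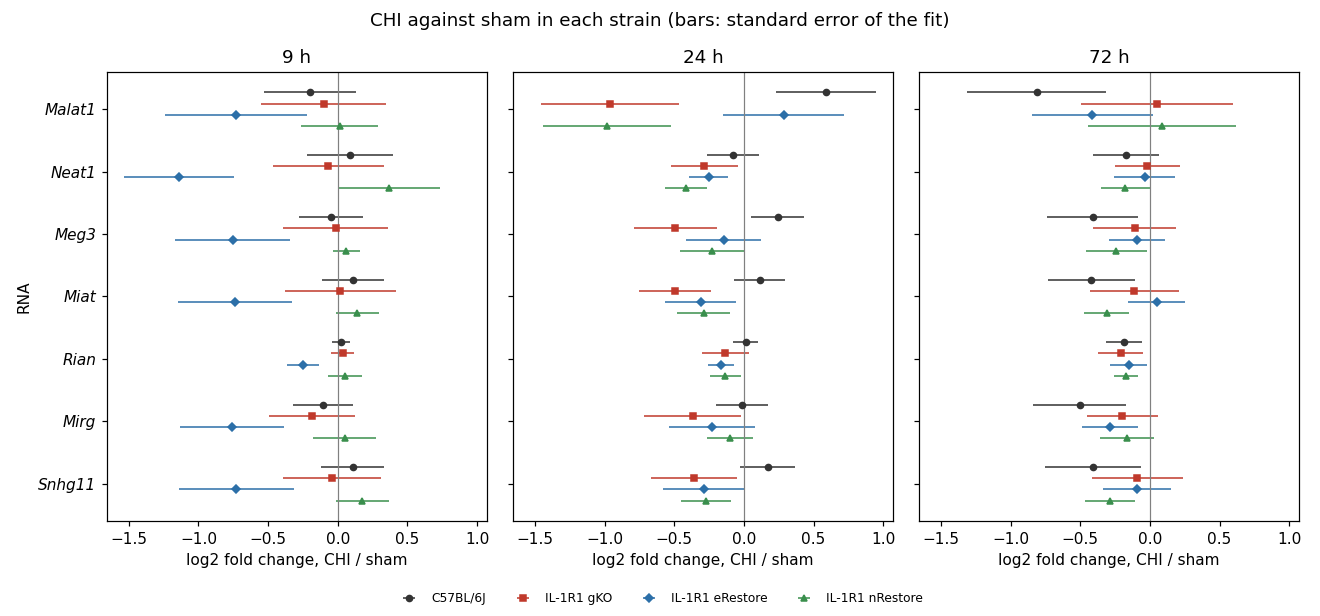
Log2 fold change of CHI over sham (horizontal axis) for each RNA in each strain at 9, 24 and 72 h, with the standard error of the fit as bars. Most points lie left of 0 (62 of 84), the widest bars belong to Malat1, and the lowest point is Neat1 in IL-1R1 eRestore mice at 9 h (-1.14).

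With the 4 strains fitted together, 0 of the 7 RNAs were called by edgeR, and 0 by DESeq2, at 9 h (26.5% of genes called), 24 h (1.96%) and 72 h (0.717%). All 7 log2 fold changes were below 0 at each time, with medians of -0.24, -0.18 and -0.19, against medians of about 0 for all genes tested. At an unadjusted p under 0.05 there were 0 at 9 h. There was 1 at 24 h, Neat1 (-0.25, SE 0.10, p = 0.0168, adjusted p = 0.21 in edgeR). There were 2 at 72 h, Rian (-0.16, SE 0.07, adjusted p = 0.56) and Mirg (-0.29, SE 0.13, adjusted p = 0.58). Experiment and surgery were not balanced: NiL-1-21 held 18 CHI mice and 1 sham mouse at 24 h, and NiL-1-24 held 8 and 12. With experiment in place of age, Malat1 at 24 h went from -0.26 (SE 0.24) to -0.03 (SE 0.20), and Neat1 from -0.25 to -0.21 (SE 0.10).

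Fits within single experiments had strain and sex as terms but not age. In them the direction of Neat1 at 9 h was the same in all 3, with log2 fold changes of -0.20 (SE 0.33) in eIL-1-76, -0.34 (SE 0.20) in eIL-1-80 and -0.22 (SE 0.36) in TM-2-33, none of which passed. All IL-1R1 nRestore mice at 9 h were of TM-2-33, and with sex and age in their own fit Neat1 was at 0.37, so the sign there rests on the covariates. At 24 h it was -0.25 (SE 0.13) in eIL-1-38 and -0.22 (SE 0.20) in NiL-1-24. At 72 h the experiments differed in sign for Neat1, with -0.02 (SE 0.16) in eIL-1-38, -0.26 (SE 0.18) in eIL-1-56 and 0.23 (SE 0.22) in nIL-1-60. In eIL-1-56, Meg3 (-0.41, SE 0.14), Miat (-0.53, SE 0.18), Rian (-0.35, SE 0.11) and Snhg11 (-0.53, SE 0.17) had unadjusted p under 0.05. Each had an adjusted p of 0.30 in edgeR. In that fit 2810 of 16841 genes had an unadjusted p under 0.05. These RNAs covary, so their values are not independent. The 6 sham mice included IL-1R1 eRestore sham mouse 3, flagged below as high for Neat1 and Miat. They also included IL-1R1 nRestore sham mouse 5, flagged below as high for Rian. How far the values rest on these mice was not tested. The effect of CHI at 9 h did not pass as different from that at 24 h for any of the 7 (12.2% of genes did) nor from that at 72 h (14.9%), with 0 at an unadjusted p under 0.05 in both.

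With experiment kept as a term, strains differed for 0 of the 7 RNAs in edgeR at 9 h (10.9% of genes called), 24 h (20.6%) or 72 h (9.59%). At an unadjusted p under 0.05 there were 0, 2 and 0, the 2 at 24 h being Rian (adjusted p = 0.098) and Snhg11 (adjusted p = 0.12). The difference of the CHI effect between strains called 0.00534, 0.00541 and 0.00543% of genes at 9, 24 and 72 h and none of the 7. Malat1 at 24 h, which was higher after CHI in C57BL/6J mice and lower in IL-1R1 gKO mice, had an unadjusted p of 0.0112 and an adjusted p of 0.68 in that edgeR test; it was the only one under 0.05. Males and females differed for 0 of the 7 at each time by edgeR (0.0806, 0.17 and 0.11% of genes called), with 0 at an unadjusted p under 0.05 and log2 differences, male minus female, of -0.12 to 0.19.

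Transcripts of the proteins that work with these RNAs were read from the same fits over the 4 strains. Of 20 paraspeckle proteins, which bind Neat1, 8 passed at 9 h, 1 higher and 7 lower (list median -0.06, all genes -0.01). Sfpq, a core paraspeckle RNA-binding protein, fell by 0.48 on the log2 scale (SE 0.05, adjusted p = 4.3e-11), and Cpsf6, a polyadenylation factor, fell by 0.22 (SE 0.05). At 24 h, Tardbp (-0.10, SE 0.02) and Pspc1 (-0.11, SE 0.03) were the 2 that passed, both lower, and at 72 h none did. Of 25 nuclear speckle proteins, the companions of Malat1, 6 passed at 9 h, 2 higher and 4 lower. The splicing factors Srsf3 (0.29, SE 0.04, adjusted p = 8.2e-07) and Tra2b (0.11, SE 0.03) were the 2 higher. At 24 h, Srsf3 was lower instead (-0.21, SE 0.04, adjusted p = 0.0012), as was Srsf7 (-0.20, SE 0.05), and at 72 h none of the 25 passed. These shares are read against 26.5, 1.96 and 0.717% of all genes.

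The neighbours of Meg3, Rian and Mirg, and other hosts of small RNAs, were read from the same fits against the same shares (26.5, 1.96 and 0.717%). Of 8 genes of the Dlk1-Dio3 region, 1 passed at 9 h, Dio3, the enzyme that inactivates thyroid hormone (0.85, SE 0.29, adjusted p = 0.0247), and 1 at 24 h, Dlk1 (0.55, SE 0.15, adjusted p = 0.0448). None passed at 72 h. Of 23 small RNA host genes 21 were tested, and Mir9-3hg, the host of a neural microRNA, was the 1 that passed at 9 h (0.63, SE 0.07) and at 24 h (0.21, SE 0.06). The small RNAs that lie inside these genes were not measured by these libraries. The annotation places 2 microRNAs in Meg3, 4 in Rian and 14 in Mirg, and 13 small nucleolar RNAs in Rian and 2 in Snhg11. All had estimated counts of 0 in every mouse except Gm25129 of Snhg11, with at most 1; the first in order of position on chromosome 12 were Mir1906-1, Mir770, Mir341 and Mir1188.

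Of 24 other long noncoding RNAs of brain, 19 were tested and 7 passed at 9 h, where 26.5% of all genes did, 1 higher and 6 lower (list median -0.09). Dlx6os1, an antisense RNA of forebrain interneurons, fell by 0.71 (SE 0.06, adjusted p = 2.7e-16), and Sox2ot, which overlaps Sox2, fell by 0.61 (SE 0.08). None of the 19 passed at 24 or 72 h. Beside this, 10 of 10 immediate early genes were lower at 9 h (Egr2 by -1.81, SE 0.22) and 3 of 8 clock output and glucocorticoid genes passed, 2 higher (Fkbp5 1.35, SE 0.14). Among cell type markers at 9 h, 3 of 4 choroid plexus genes were lower (Kcnj13 -2.31, SE 0.67), 3 of 4 microglial genes were lower (P2ry12 -0.62, SE 0.08), 3 of 5 astrocyte genes passed (Gfap 0.78, SE 0.11, the higher of 2 that rose), 3 of 4 endothelial genes passed (Cldn5 0.36, SE 0.08, and Pecam1 0.24, SE 0.06, were higher and Flt1 lower), 1 of 7 neuronal genes was higher (Rbfox3 0.16, SE 0.05), and 0 of 5 oligodendrocyte and 0 of 4 blood genes passed. At 24 h, where 1.96% of all genes passed, the marker genes called were the neuronal Gad2 (0.24, SE 0.05) and the astrocyte genes Gfap (0.49, SE 0.10) and Aldh1l1 (-0.15, SE 0.04). At 72 h, where 0.717% did, they were Gfap (0.69, SE 0.09) and 3 of 4 microglial genes, all higher, among them Csf1r (0.18, SE 0.03) and Cx3cr1 (0.20, SE 0.04). What part these had in the levels of the 7 RNAs was not tested.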

How the data were processed

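Brain RNA (1 hemisphere, poly(A)-selected, paired-end) was sequenced in 200 mice. The authors aligned reads to GRCm39 with STAR and quantified them with Salmon in the nf-core/rnaseq pipeline, and deposited estimated counts and TPM per gene; TPM were scaled by the authors for length and library total. The annotation release, the strandedness and the preparation of the strains other than C57BL/6J were not given in the sources used here. Estimated counts were rounded.

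Groups came from the labels. CHI was compared with sham in edgeR 4.0.16 (R 4.3.3; TMM factors, robust quasi-likelihood F test, SE from the fold change and F) with sex and age as covariates, on genes that reached 10 counts in a number of mice equal to the smaller group, and p-values were adjusted by Benjamini-Hochberg over all genes tested (threshold 0.05). The study's test, DESeq2 with gene-length offsets, was run in DESeq2 1.42.0 as an alternative. Log2 CPM used TMM factors and a prior count of 0.5. Pairs of RNAs were tested by 100000 two-sided permutations within groups, and relative effective length (genes with at least 100 counts) by two-sided exact permutation tests over 84 comparisons. The edgeR fits were tested on simulated counts. P-values measure the spread between mice, which the labels list as separate animals. The main CHI fits and the permutation tests held no term for experiment, so there that spread includes differences between experiments.

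Alternatives were DESeq2, other factors, no filter, other covariates, single experiments, leaving out each sham mouse and, added after seeing the data, leaving out experiment eIL-1-76 and fits within experiments. The genes and lists were chosen with earlier results of these data known. Named genes were the 7 RNAs, Il1r1, the 2 list genes with the smallest p past the threshold at each time, and the 3 genes nearest to each RNA by r. Depth limits precision most for Mirg, which had as few as 13 counts in a library.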

Additional observations from a re-analysis of the deposited data

Results flagged for a closer look

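In groups of 4 to 10 mice, a mouse was set apart when its gap to the nearest mouse on the log2 CPM scale was above Dixon's 95% limit for the group's range. This happened in 6 of 112 pairs of an RNA and a group, where chance gives 5.6. IL-1R1 eRestore sham mouse 3 at 24 h, of experiment eIL-1-38, was the lowest of 5 for Meg3 (686 CPM, the next mouse 1243), Miat (70.7 CPM, next 143.5) and Snhg11 (309.9 CPM, next 584). These are the 3 RNAs with the highest r among each other, so the 3 flags are not separate events. IL-1R1 eRestore sham mouse 3 at 72 h, of eIL-1-56, was the highest of 6 for Neat1 (134.3 CPM, next 77.4) and Miat (198.3 CPM, next 122). IL-1R1 nRestore sham mouse 5 at 72 h, of eIL-1-56, was the highest of 5 for Rian (768 CPM, next 629) and had 9.76% of its counts from mitochondrial genes, the highest share of all mice. The causes were not tested.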

How the results depend on the processing

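No member was called in CHI against sham in any alternative except these. In IL-1R1 eRestore mice at 9 h, 1 member (Neat1) was called by DESeq2, 1 by DESeq2 with gene-length offsets and 1 without experiment eIL-1-76. These 3 fits called 1991 of 16652, 1539 of 16652 and 370 of 16413 genes. Without a filter on low counts, 1 member (Neat1) was called in IL-1R1 nRestore mice at 9 h, where 806 of 29826 genes were. In C57BL/6J mice at 24 h, 2 (Malat1 and Meg3) were called, where 333 of 31742 genes were. There the SE of Malat1 went from 0.36 to 0.05, and the cause was not tested. Between experiments at 9 h, 1 member instead of 7 was called without eIL-1-76, on fewer mice. Over the 4 strains, all genes called at 9 h went from 4406 to 2870 without eIL-1-76 and to 1604 in the largest experiment alone. At 24 h they went from 327 to 212 without a filter, 213 with experiment in place of age and 23 in the largest experiment, and at 72 h they went to 37 in the largest experiment. In the largest experiment alone the sign turned for Rian at 9 h (0.0019), Malat1 (0.29) and Meg3 (0.028) at 24 h and Miat at 72 h (0.069), none past the threshold. Malat1 in IL-1R1 eRestore mice at 9 h was 0.013 without eIL-1-76. Leaving out 1 sham mouse at a time, the log2 fold change of Malat1 in IL-1R1 nRestore mice at 24 h ran from -1.26 to 0.074, the latter without sham mouse 1, and of Neat1 in IL-1R1 eRestore mice at 9 h from -1.27 to -0.90. The 42 alternative correlations of pairs, again permuted within groups and not within experiments, kept their sign and stayed past the threshold. With 1000 counts in place of 100, 0 comparisons of relative length passed. Experiment in place of age could not be fitted in IL-1R1 nRestore mice at 9 h, which came from 1 experiment. No paired analysis was possible because the labels give no replicate numbers that tie mice of different groups together; numbers here follow the order of listing. Without sex and age as covariates, the sign turned for 9 of the 84 fold changes within strains, 6 of them in IL-1R1 nRestore mice at 9 h, none past the threshold. Depth limits precision most for Mirg.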
